A study of Mus musculus with 12 samples.

Results

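γδ T cells from wild-type mice fed a methionine- and choline-deficient (MCD) diet were compared with γδ T cells from wild-type mice fed a control diet, across all genes. The members were the 4 libraries that the labels name as γδ T cells, 2 on the MCD diet and 2 on the control diet, out of 12 libraries in all. The mice were wild type C57BL/6, began the diet at 7 weeks of age and stayed on it for 6 weeks. The cells were sorted by flow cytometry straight into lysis buffer, and their RNA was sequenced on Illumina instruments. The other 8 libraries were CD4+ T cells. The 4 of them from wild-type mice, 2 on the MCD diet and 2 on the control diet, served as a second cell type under the same diets. The other 4 came from γδTCR-/- mice, 2 on the MCD diet and 2 on the control diet, and entered only the shared fit and the range of replicate spread. The labels name no tissue, no sorting markers and no batch, and do not say whether replicates came from separate mice or pools. The p-values therefore measure only the spread between these libraries, which may be technical. The title of one MCD library, called replicate 2 here, joins 2 codes, 1 of which is also the code of a CD4+ library on the MCD diet, and the labels do not explain it.

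The receptor of γδ T cells pairs a γ with a δ chain, and the cells respond quickly, often to cytokines alone. In mice they are known for a subset that makes interleukin-17, marked by the interleukin-23 receptor, and a subset that makes interferon-γ and carries receptors shared with natural killer (NK) cells. Methionine and choline feed the methyl donor cycle and the synthesis of phosphatidylcholine. A diet without them causes fat storage, oxidative stress and inflammation in the mouse liver, a model of steatohepatitis.

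The libraries on the MCD diet held fewer counts and fewer genes than those on the control diet. Non-mitochondrial counts were 7977220 and 9000102 in MCD replicates 2 and 4, against 10415014 and 10153523 in control replicates 6 and 7. Of the 16218 genes tested, 32.0% and 27.1% had no count in the MCD libraries and 16.0% and 17.9% had none in the control libraries. The MCD replicates also differed more from each other: among 5068 genes averaging 20 counts-per-million (CPM) or more, 29.9% differed more than 4-fold between the MCD replicates, against 6.92% of 4801 genes between the control replicates and 0.824% to 2.58% in the 4 CD4+ groups, γδTCR-/- mice included. In addition, 736 genes had at least 100 counts in one MCD library and 0 in the other, against 371 between the control libraries. In the 4 libraries 53.8% to 56.8% of all counts were mitochondrial.

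The label genes were high in all 4 libraries. Trdc, the δ constant gene, read 623 and 538 CPM on the MCD diet against 733 and 647 CPM on the control diet, while Cd4 read 4.29 and 1.21 CPM on the MCD diet against 1.02 and 0.975 CPM on the control diet. Cd8a, a co-receptor gene that part of the γδ T cells carry, read 80.2 and 51.7 CPM on the MCD diet against 322 and 171 CPM on the control diet. Defining markers of other cell types were also detected. The summed level of the 16 tested of 19 macrophage and Kupffer cell markers was 3219 and 2259.7 CPM in the MCD libraries. It was 1242 and 2355 CPM in the control libraries, compared with 28.1 to 113 CPM in the 4 wild-type CD4+ libraries. Lyz2, the lysozyme gene of myeloid cells, made up much of it, with 1616 and 1178 CPM on the MCD diet against 616 and 1252 CPM on the control diet. The members went both ways. Of the 16, 4 were higher in both MCD libraries than in either control library (11.1% of all genes) and 6 were lower (22.1%). Among the lower ones, Clec4f read 0 and 0 CPM on the MCD diet against 7.88 and 2.44 CPM on the control diet. C1qb read 10.4 and 12.6 CPM against 53.3 and 49.2 CPM. A list of 12 dendritic cell and MHC class II genes summed to 3434 and 3353 CPM on the MCD diet against 2152 and 4327 CPM on the control diet, compared with 82.3 to 116 CPM in the CD4+ libraries. The sums of both lists overlapped between the diets. The neutrophil and monocyte markers did not: they summed to 1212 and 1006 CPM on the MCD diet against 383 and 566 CPM on the control diet. In bulk RNA, fewer cells of a type and less RNA per cell cannot be told apart.

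**Figure D1:**
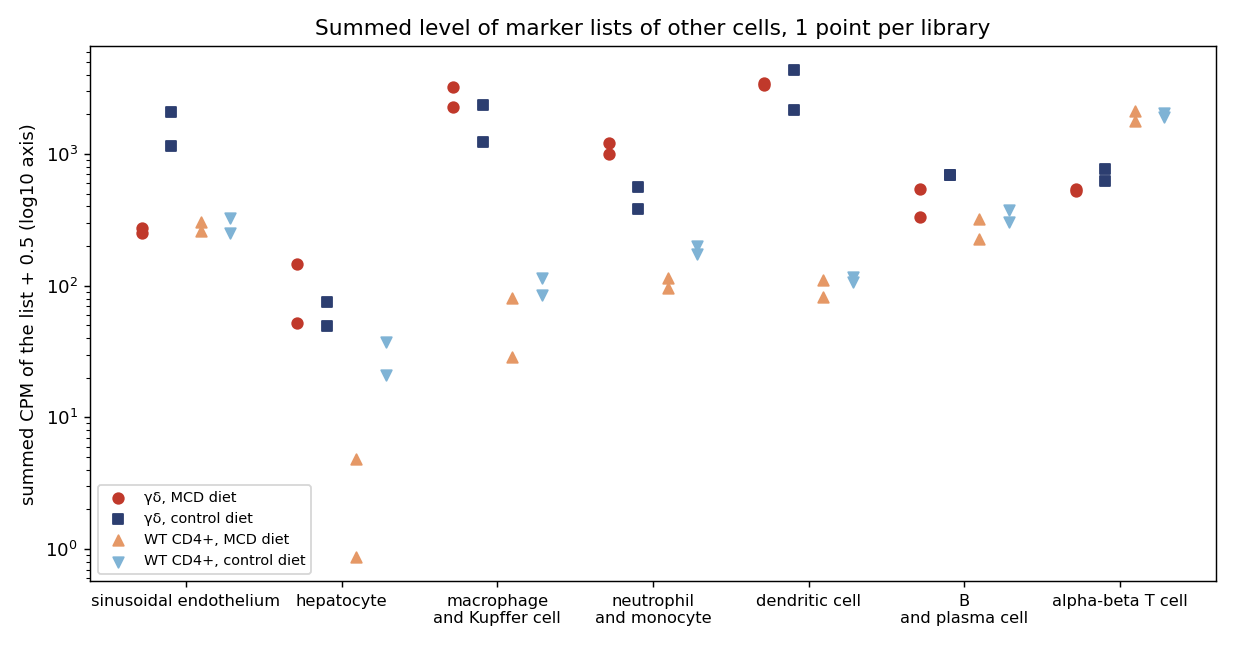
Summed CPM (log10 axis, 0.5 added) of 7 marker lists of other cells, 1 point per library, in γδ T cells on the MCD diet (circles) and control diet (squares) and in wild-type CD4+ T cells on the MCD diet (upward triangles) and control diet (downward triangles). The macrophage and dendritic cell lists sat far higher in all 4 γδ libraries and at or below 116 CPM in the CD4+ libraries. The endothelial list was at 253 and 273 CPM in γδ cells on the MCD diet against 1154 and 2078 CPM on the control diet. In the CD4+ libraries the endothelial list lay between 253 and 325 CPM.

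No gene passed the test between the diets at an adjusted p of 0.05 in edgeR's quasi-likelihood test, 0.0% of the 16218 genes, and the lowest adjusted p was 0.0548. With p under 0.05 before adjustment, 1020 genes were higher and 1819 lower on the MCD diet. Other tools called more: DESeq2 2070 genes, limma-voom 63, and limma on the deposited FPKM 148 or 210 genes, depending on the pseudocount. A fit without 1 of the γδ libraries leaves 1 library for a diet and takes the spread of that diet from the other groups. Its count of called genes therefore cannot show which library the result rests on. Genes below are therefore given as values, with the log2 fold change (MCD minus control), its standard error (SE) and the adjusted p of edgeR's test. A gene was called separated when its lowest CPM in the higher diet was at least 2-fold above its highest CPM in the lower diet, after adding 0.5 CPM. Separated genes made up 2.97% of all tested genes in the higher direction (481 genes) and 9.24% in the lower direction (1499 genes). Diets did not overlap at all in 11.1% of genes (1800) in the higher and 22.1% (3592) in the lower direction. The fitted fold change was above 0 in 42.5% of genes and below 0 in 51.3%, with a median of -0.06. Among the 5974 genes averaging 20 CPM or more in either diet the split was more even, with 321 separated higher and 349 separated lower.

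**Figure D2:**
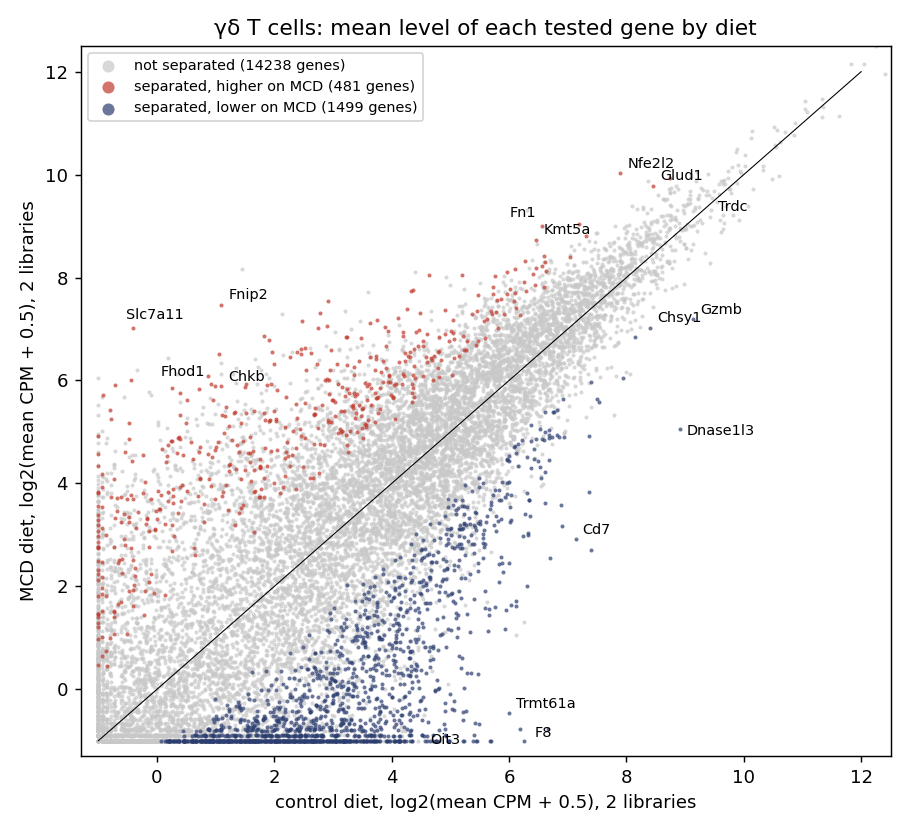
Mean CPM of the 16218 tested genes in γδ T cells, MCD diet (vertical) against control diet (horizontal), both as log2 with 0.5 added, 2 libraries a diet. The 481 genes separated in the higher direction (red) lie above the diagonal and the 1499 separated in the lower direction (blue) below it, many of the latter at or near 0 on the MCD diet.

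Among genes averaging 20 CPM or more in their higher diet, the widest gap in the higher direction was that of Slc7a11, the cystine importer that feeds glutathione synthesis (chr3:49892526-50443614, mm10). It read 119.9 and 139.9 CPM on the MCD diet against 0.407 and 0.108 CPM on the control diet, with 1452 and 2082 counts against 8 and 2 counts. Fnip2, a partner of folliculin in nutrient signalling at the lysosome, read 128 and 226 CPM against 0.305 and 2.98 CPM (log2 fold change 6.67, SE 1.48, adjusted p = 0.0912). Chkb, a choline kinase that starts phosphatidylcholine synthesis, read 62.2 and 55.4 CPM on the MCD diet against 2.24 and 1.03 CPM on the control diet (5.09, SE 0.97, adjusted p = 0.0724). These 3 genes stood near 0 in both control libraries and above 50 CPM in both MCD libraries. A further annotated transcript on the same strand shares 50.7% of the exon bases of Chkb, so its reads cannot be assigned to Chkb alone. The formin Fhod1 read 64.1 and 54.5 CPM against 1.68 and 1.3 CPM. Several nuclear genes for mitochondrial proteins were among the 10 widest gaps: the ribosomal protein gene Mrpl41 read 65.9 and 18.8 CPM against 0.153 and 0 CPM, the import subunit gene Timm22 18.5 and 38.6 CPM against 0 and 0.433 CPM, and the inner membrane protein gene Tmem11 27.7 and 28.0 CPM against 0.509 and 0.867 CPM. The membrane protein gene Ms4a8a had no count in either control library and read 32.9 and 13.5 CPM on the MCD diet. This was at least 147-fold higher against a floor of 3 counts per library, which covers counting error only. The other 2 of these 10 were Serpinb8, a protease inhibitor gene at 18.7 and 23.8 CPM on the MCD diet against 0 and 0.487 CPM on the control diet, and Hp, at 77.3 and 43.4 CPM against 1.32 and 1.46 CPM. Hp encodes haptoglobin, a marker of hepatocytes that myeloid cells also make.

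In the lower direction, 7 of the 10 widest gaps were genes of endothelium or matrix. F8, the coagulation factor made by liver sinusoidal endothelium, read 0 and 0 CPM on the MCD diet against 36.1 and 116 CPM on the control diet, at least 339-fold lower against the same floor. The endothelial adhesion receptor gene Adgrf5 was at 0 in both MCD libraries and read 72.0 and 30.6 CPM on the control diet, at least 228-fold lower. The matrix genes Sparc, Igfbp7 and Bgn were at 0 to 0.165 CPM on the MCD diet and at 36.0 to 104 CPM on the control diet. Over the list of sinusoidal endothelial markers, 18 of 18 tested members had a fold change below 0 (51.3% of all genes), with a median of -5.14, or -3.44 without control replicate 7 and -7.80 without MCD replicate 4. Of these 18, 14 were separated in the lower direction (9.24% of all genes) and 6 were at 0 in both MCD libraries. Among those 6 were Kdr, Oit3, Flt4 and Bmp2, the members with the widest gaps. Of all tested genes, 32.0% had no count in MCD replicate 2 and 27.1% none in MCD replicate 4. The share at 0 in both was not counted, so the 6 cannot be set against it. The list as a whole summed to 253 and 273 CPM on the MCD diet, against 1154 and 2078 CPM on the control diet. In the wild-type CD4+ libraries it summed to 262 and 307 CPM on the MCD diet against 325 and 253 CPM on the control diet. Genes that are not endothelial were present among the 10 as well. Taf11, a subunit of the general transcription factor TFIID, read 0.0825 and 0.0672 CPM on the MCD diet against 23.96 and 30.9 CPM on the control diet (-7.29, SE 1.49, adjusted p = 0.0761). Trmt61a, the catalytic subunit of a tRNA methyltransferase, read 0.248 and 0.202 CPM against 35.4 and 91.3 CPM (-7.61, SE 1.06, adjusted p = 0.0548), and the GTPase-activating protein gene Arhgap23 read 0.248 and 0.0672 CPM against 40.5 and 33.0 CPM.

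Among the 581 genes averaging 200 CPM or more over the 4 libraries, where counting error is small, 10 were separated in the higher and 3 in the lower direction. The widest gap in the higher direction was in Kmt5a, which encodes the enzyme that adds a single methyl group to a lysine of histone H4: it read 405 and 444 CPM on the MCD diet against 69.6 and 106 CPM on the control diet (2.27, SE 0.35, adjusted p = 0.0662). Glud1, the mitochondrial glutamate dehydrogenase, read 815 and 944 CPM against 354 and 344 CPM, a 2.52-fold difference (1.33, SE 0.26, adjusted p = 0.0761). Sorl1, a sorting receptor of the endosome, read 1072 and 887 CPM against 432 and 426 CPM, and Apobec3, a cytidine deaminase that restricts retroviruses, read 409.5 and 637 CPM against 127 and 165 CPM. Glud1 and Sorl1 had the closest control replicates of these 4 genes. Sike1, a suppressor of the kinase IKKε, read 253 and 375 CPM on the MCD diet against 95.3 and 99.5 CPM on the control diet. The adaptor gene Cd2ap read 320.0 and 353 CPM against 136 and 127 CPM, and the membrane protein gene Heg1 428 and 467 CPM against 134 and 183 CPM. Fn1, the fibronectin gene, read 621 and 406 CPM on the MCD diet against 38 and 151 CPM on the control diet, compared with 0.139 to 1.77 CPM in wild-type CD4+ libraries. In the lower direction Dnase1l3, a nuclease gene among the endothelial markers, had the widest gap, with 50.3 and 15.2 CPM on the MCD diet against 299 and 661 CPM on the control diet. The others were Gzmb and Chsy1, a chondroitin synthase gene that read 126 and 133 CPM on the MCD diet against 306 and 371 CPM on the control diet (-1.38, SE 0.41, adjusted p = 0.145).

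The receptor and its signalling complex were lower in most members. Of 15 tested genes of the γδ receptor and CD3 complex, 12 had a fold change below 0 (51.3% of all genes), with a median of -0.60 (-0.29 without control replicate 6). Of the 15, 8 did not overlap between the diets in the lower direction (22.1% of all genes) and 1 in the higher (11.1%). Cd3g, which encodes the CD3γ chain, was the 1 separated member, with 70.0 and 24.9 CPM on the MCD diet against 229 and 142 CPM on the control diet (-1.97, SE 0.49, adjusted p = 0.104). Cd3e read 1045 and 976 CPM against 1608 and 1488 CPM and Cd3d 61.6 and 45.1 CPM against 74.7 and 109.6 CPM. The γ constant genes differed among themselves. Tcrg-C1 read 673 and 519 CPM on the MCD diet against 938 and 659 CPM on the control diet, and overlapped, while Tcrg-C4 read 410.1 and 211 CPM against 734 and 635 CPM (-1.14, SE 0.47, adjusted p = 0.239). Tcrg-C3, the scarcest, read 0.578 and 0.806 CPM on the MCD diet against 12.46 and 26.3 CPM on the control diet. Tcrg-C1, Tcrg-C2 and Tcrg-C3 are close copies, so the authors' counting could split their reads. Among variable segments, Trgv2 read 83.1 and 51.5 CPM against 61.6 and 79.4 CPM and Trdv4 5.53 and 14.5 CPM against 32.4 and 4.06 CPM, and both overlapped between the diets.

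Genes of the IL-17 programme were higher in most members, at a median of 0.87, against -0.06 over all genes, and between 0.72 and 1.04 with each library left out in turn. Of 19 tested members, 16 had a fold change above 0 (42.5% of all genes), and 8 did not overlap in the higher direction (11.1% of all genes) against 0 in the lower. Il23r, the interleukin-23 receptor gene, read 65.0 and 62.1 CPM on the MCD diet against 25.3 and 25.7 CPM on the control diet (1.32, SE 1.36, adjusted p = 0.636). Its lowest MCD library was more than 2-fold above its highest control library. Stat3, which carries the interleukin-23 and interleukin-6 signals, read 338 and 415 CPM on the MCD diet against 198 and 110.3 CPM on the control diet, and the interleukin-7 receptor gene Il7r 1100.3 and 895 CPM against 496 and 601 CPM. Cd163l1, a scavenger receptor of interleukin-17 producing γδ T cells, read 112 and 169 CPM on the MCD diet against 94.5 and 42.8 CPM on the control diet. Other regulators of the programme were level or varied between replicates: Maf read 179.6 and 164 CPM on the MCD diet against 177 and 146 CPM on the control diet, Sox13 12.7 and 77.0 CPM against 23.5 and 15.9 CPM, and Il1r1 212 and 53.3 CPM against 64.0 and 10.9 CPM.

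**Figure D3:**
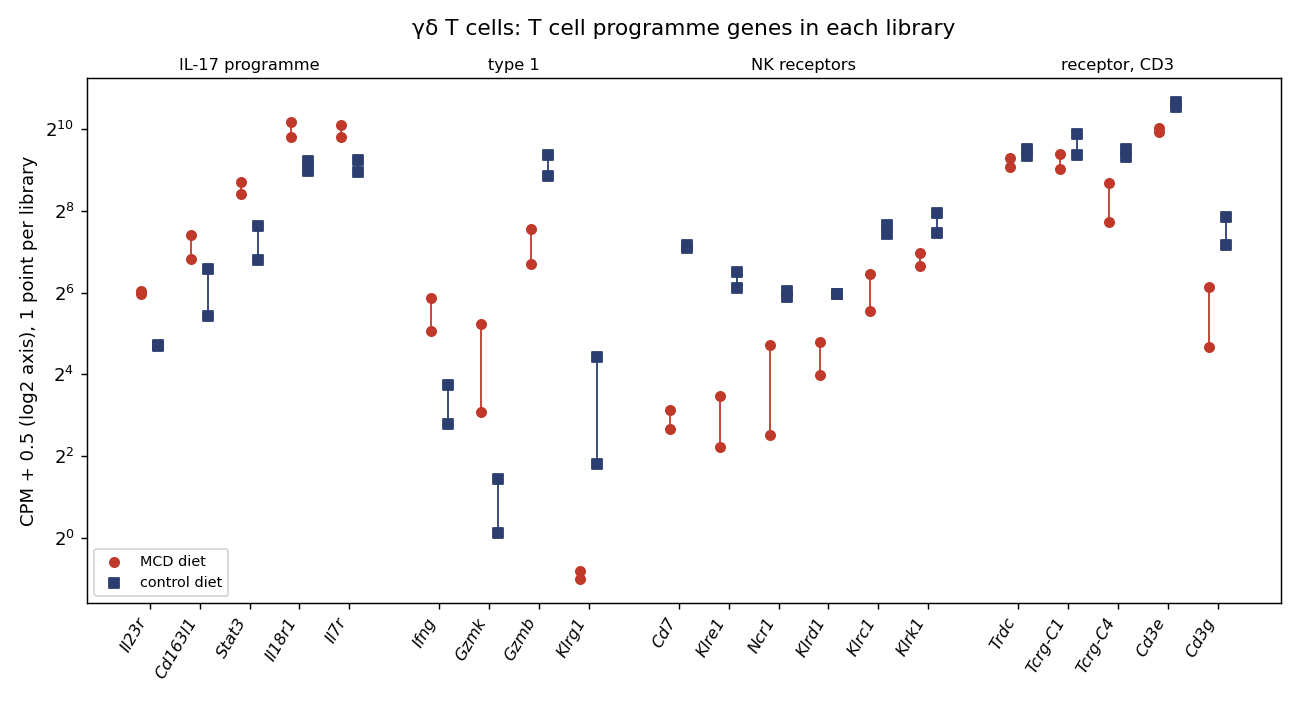
CPM (log2 axis, 0.5 added) of 20 T cell genes in each γδ library, with 2 MCD libraries (red circles, left) and 2 control libraries (blue squares, right) per gene and a line joining the replicates. The IL-17 genes shown lie higher on the MCD diet, as Il23r at 65.0 and 62.1 CPM on the MCD diet against 25.3 and 25.7 CPM on the control diet, and the NK receptors shown lie lower, as Cd7 at 5.86 and 8.20 CPM against 136 and 143 CPM.

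NK receptors and their adaptors were lower in most members. Of 18 tested genes, 14 had a fold change below 0 (51.3% of all genes), 12 did not overlap in the lower direction (22.1% of all genes) against 0 in the higher, and 5 were separated in the lower direction (9.24% of all genes). The median was -1.21, and ran from -2.01 without MCD replicate 4 to -0.95 without control replicate 6. Cd7, a surface protein of T and NK cells (chr11:121036747-121039418), read 5.86 and 8.2 CPM on the MCD diet against 136 and 143 CPM on the control diet, a 19.9-fold higher level in the control libraries (-4.29, SE 0.93, adjusted p = 0.0911). Klre1, an NK receptor gene of the lectin family, read 4.21 and 10.7 CPM against 69.0 and 89.9 CPM. Ncr1, which encodes the activating receptor NKp46, read 5.2 and 25.8 CPM on the MCD diet against 64.9 and 59.0 CPM on the control diet. Klrd1 and Klrc1, which encode the partners CD94 and NKG2A, read 15.3 and 27.4 CPM and 46.1 and 87.4 CPM on the MCD diet against 62.3 and 62.1 CPM and 172 and 202 CPM on the control diet. All of these were lower in both MCD libraries than in either control library. The adaptor genes Fcer1g and Tyrobp, which myeloid cells share, overlapped between the diets, with 370.1 and 224 CPM and 95.2 and 33.5 CPM on the MCD diet against 284 and 259 CPM and 54.1 and 60.2 CPM on the control diet. Cd160, another receptor of NK and intraepithelial T cells, read 58.5 and 40.3 CPM against 157 and 205 CPM. NK cells share these receptors, and the part of such cells in these values was not tested.

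The type 1 and cytotoxic list was divided. Its median was 0.17, or -0.06 with library-size scaling and -0.53 without MCD replicate 4, with 12 of 23 members above 0 (42.5% of all genes) and 11 below (51.3%). Ifng, the interferon-γ gene, read 58.2 and 32.6 CPM on the MCD diet against 12.8 and 6.44 CPM on the control diet (2.22, SE 0.83, adjusted p = 0.216); another annotated transcript shares 25.9% of its exon bases. Gzmk, which encodes granzyme K, read 36.8 and 7.99 CPM against 2.24 and 0.596 CPM. Both were separated in the higher direction. Klrg1, a receptor of terminal effector cells, was separated in the lower direction, with 0 and 0.0672 CPM on the MCD diet against 21.1 and 3.03 CPM on the control diet, as was Gzmb, with 104 and 186 CPM against 653 and 464 CPM. The transcription factor gene Tbx21 read 66.2 and 20.3 CPM on the MCD diet against 33.5 and 67.7 CPM on the control diet and overlapped. Among homing and residency genes, Cdh1, the E-cadherin gene, was separated, with 53 and 50.5 CPM on the MCD diet against 11.5 and 5.96 CPM on the control diet (2.55, SE 1.20, adjusted p = 0.289). P2rx7, the ATP-gated channel that resident T cells carry, read 73.6 and 54.7 CPM against 164 and 133 CPM.

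The NRF2 list, of genes that the regulator NRF2 is known to raise under oxidative stress, had 26 of 29 tested members above 0 (42.5% of all genes) and a median of 0.999. Of the 29, 13 did not overlap in the higher direction (11.1% of all genes) and 1 in the lower (22.1%). Without MCD replicate 2 the median was 0.58. Nfe2l2, which encodes NRF2, read 1119.9 and 972 CPM on the MCD diet against 178 and 295 CPM on the control diet (2.14, SE 0.37, adjusted p = 0.0724). Beyond Slc7a11, Nfe2l2 and Sod2, the separated members were Hmox1 and Abcc1. Hmox1, the heme-degrading oxygenase, read 65.5 and 80.5 CPM on the MCD diet against 4.02 and 6.66 CPM on the control diet (3.75, SE 1.41, adjusted p = 0.218), and Abcc1, an exporter of glutathione conjugates, 62.5 and 41.2 CPM against 11.8 and 19.1 CPM. Gclm, the regulatory subunit of glutathione synthesis, read 27.7 and 30.5 CPM on the MCD diet against 1.88 and 15.8 CPM on the control diet, and the iron store gene Fth1 826 and 519.5 CPM against 293 and 256 CPM. Txn1, the thioredoxin gene, ran the other way, with 19.8 and 9.47 CPM on the MCD diet against 50.7 and 33.7 CPM on the control diet. Of 14 iron handling genes, 8 lay above 0 (42.5% of all genes), but a pair of transporter genes was lower: Slc39a14 read 5.2 and 0.202 CPM against 24.6 and 41.9 CPM, and Slc40a1, the iron exporter that macrophages carry, 0.165 and 2.08 CPM against 3.97 and 36.2 CPM. In the wild-type CD4+ libraries Slc7a11 read 0 and 3.42 CPM on the MCD diet against 0.046 and 0.13 CPM on the control diet. The macrophage marker sum was 3219 and 2259.7 CPM on the MCD diet against 1242 and 2355 CPM on the control diet beside these genes. Members of that list went both ways, as given above. The neutrophil and monocyte sum was 1212 and 1006 CPM against 383 and 566 CPM. The part of these cells in the NRF2 values was not tested.

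NRF2 binds DNA at the antioxidant response element, whose core is TGACNNNGC. The core, searched on both strands from 250 bases before to 50 bases after the start, was present in 9 of 34 promoters of the list (26.47%, over the 25 of 30 genes that matched the RefSeq table) and in 12.39% of all 32851 promoters. The other lists searched were near the NRF2 list, at 24.32% for the integrated stress response and 21.21% for proliferation genes. The 9 were those of G6pdx, Gclm, Me1, Nfe2l2, Pgd, Prdx1, Sod1, Srxn1 and Txnrd1. The promoters of the regulator itself and of Gclm are shown as examples with the core, from genes that were higher in each MCD library than in either control library. Of 9 such genes with a promoter in the table, 4 held the core and 5 did not: Slc7a11, Sod2, Fth1, Gpx1 and Sqstm1. In the sequences capitals mark the core (RefSeq, GRCm38.p6, chr2:75704614-75704913 on the minus strand and chr3:122245307-122245606 on the plus strand).
Nfe2l2: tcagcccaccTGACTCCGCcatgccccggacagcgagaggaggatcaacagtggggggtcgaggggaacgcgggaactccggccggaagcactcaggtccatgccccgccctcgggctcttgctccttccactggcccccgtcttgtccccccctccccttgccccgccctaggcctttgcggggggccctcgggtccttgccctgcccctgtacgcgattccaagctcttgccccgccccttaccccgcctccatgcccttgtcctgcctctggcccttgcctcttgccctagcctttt
Gclm: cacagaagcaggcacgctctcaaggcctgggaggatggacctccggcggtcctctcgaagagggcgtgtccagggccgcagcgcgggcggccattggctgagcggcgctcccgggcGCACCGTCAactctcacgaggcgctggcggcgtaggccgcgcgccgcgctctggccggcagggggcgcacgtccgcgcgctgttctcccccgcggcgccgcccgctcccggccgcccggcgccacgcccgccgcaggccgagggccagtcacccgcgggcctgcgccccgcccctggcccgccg
A match describes the letters in this window and is not evidence of binding.

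Genes that handle methionine, choline and one-carbon units were mixed. Of 32 tested members, 22 had a fold change above 0 (42.5% of all genes), with a median of 0.60, but -0.97 without MCD replicate 4. Beside Chkb, the separated member in the higher direction was Enoph1, an enzyme of methionine salvage, with 31.7 and 49.4 CPM on the MCD diet against 12.7 and 13.7 CPM on the control diet (1.61, SE 1.23, adjusted p = 0.493). Mtap, which opens the same salvage pathway, ran the other way, with 1.9 and 11.2 CPM against 50.4 and 30.8 CPM. Ahcyl2, a relative of the homocysteine-forming hydrolase, read 200.1 and 195 CPM on the MCD diet against 91.5 and 100.03 CPM on the control diet, and Odc1, the first enzyme of polyamine synthesis, 54.2 and 86.7 CPM against 37.1 and 36.7 CPM. Mat2a, the enzyme that makes S-adenosylmethionine in T cells, read 184 and 159 CPM on the MCD diet against 159 and 178 CPM on the control diet and overlapped. Genes of the integrated stress response, which cells raise when amino acids run short, stood on both sides: 15 of 29 tested members lay above 0 (42.5% of all genes) and 13 below (51.3%). The median was 0.22, with a sign that held in 7 of 16 alternatives (-1.08 to 0.40). Its target Asns, the asparagine synthetase, read 0 and 0 CPM on the MCD diet against 0.763 and 0 CPM on the control diet, and Ddit3, which encodes CHOP, read 0.66 and 0.806 CPM on the MCD diet against 4.02 and 8.23 CPM on the control diet. Slc7a1, a transporter of cationic amino acids, read 156 and 94.1 CPM against 63.2 and 77.8 CPM. Among 33 methyltransferases, 2 were separated in the higher direction (2.97% of all genes) and 7 in the lower (9.24% of all genes). Prmt7, an arginine methyltransferase, read 11.6 and 16.2 CPM on the MCD diet against 1.02 and 0 CPM on the control diet, and Ezh1, a histone H3 methyltransferase, 5.37 and 8.06 CPM against 57.5 and 36.0 CPM. Mettl16, an RNA methyltransferase that controls Mat2a transcripts, read 10.6 and 5.58 CPM on the MCD diet against 42.5 and 27.6 CPM on the control diet.

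**Figure D4:**
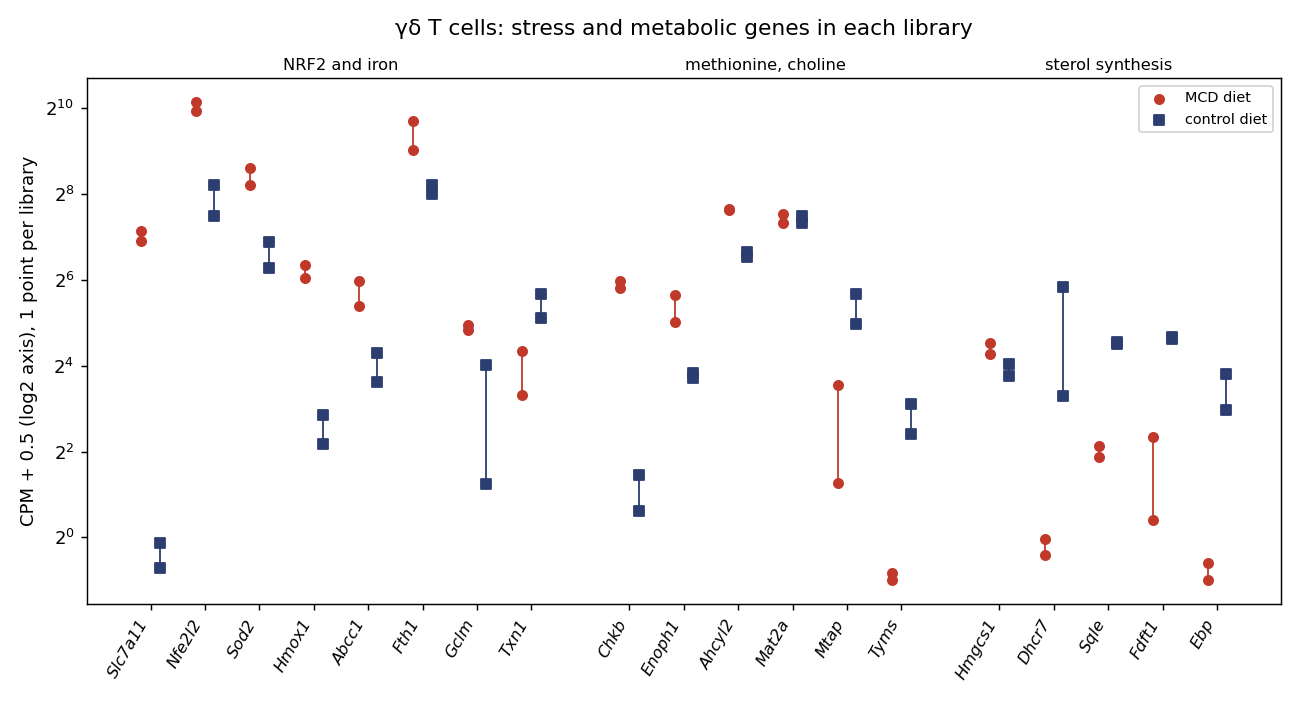
CPM (log2 axis, 0.5 added) of stress and metabolic genes in each γδ library, with 2 MCD libraries (red circles, left) and 2 control libraries (blue squares, right) per gene and a line joining the replicates. Of the NRF2 genes shown, Txn1 alone lies lower on the MCD diet, Mat2a overlaps at 184 and 159 CPM against 159 and 178 CPM, and the sterol genes shown lie lower except Hmgcs1.

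Inflammatory signalling genes were higher in most members. The NF-κB and inflammasome list had 21 of 28 members above 0 (42.5% of all genes) and a median of 0.85 (0.58 without MCD replicate 2). Of the 28, 11 did not overlap in the higher direction (11.1% of all genes) and 3 in the lower (22.1%). Separated members numbered 3 in the higher direction (2.97% of all genes) and 1 in the lower (9.24%). Birc3, which encodes an inhibitor of apoptosis, was separated, with 227 and 256 CPM on the MCD diet against 97.8 and 54.5 CPM on the control diet (1.67, SE 0.37, adjusted p = 0.0912), and the adaptor gene Traf1 was separated as well, with 218 and 96.0 CPM against 36.7 and 44.8 CPM. Tnip1, which encodes a partner of the NF-κB inhibitor A20, was the member separated in the lower direction, with 1.07 and 9.67 CPM on the MCD diet against 23.9 and 20.9 CPM on the control diet. Nfkbiz, an atypical IκB protein, read 122 and 172 CPM on the MCD diet against 65.7 and 51.8 CPM on the control diet. Nlrp3 and Il1b, inflammasome genes of myeloid cells, read 5.2 and 36.4 CPM and 34.9 and 109 CPM on the MCD diet against 0.407 and 0.812 CPM and 17.7 and 1.25 CPM on the control diet. They stand beside the neutrophil and monocyte list, in which 14 of 16 members lay above 0 (42.5% of all genes), 6 were separated in the higher direction (2.97%) and 1 in the lower (9.24%), with a median of 2.94 (1.70 without MCD replicate 4). In that list Clec4e, a receptor of activated macrophages, read 51.3 and 107 CPM on the MCD diet against 5.19 and 1.79 CPM on the control diet, Csf3r, the granulocyte growth factor receptor, 92.1 and 85.2 CPM against 8.49 and 17.2 CPM, and S100a8 2.48 and 14.2 CPM against 0.0509 and 0 CPM. The 1 separated in the lower direction was Mmp9, a secreted protease gene, with 0.825 and 2.35 CPM on the MCD diet against 22.2 and 33.6 CPM on the control diet. Their part in the NF-κB values was not tested. Of 18 genes that T cell receptor signals induce, 12 lay above 0 (42.5% of all genes), at a median of 0.80 (0.27 without MCD replicate 2). Among them Myc was separated in the higher direction, with 212 and 158 CPM on the MCD diet against 65.9 and 68.4 CPM on the control diet (1.46, SE 0.56, adjusted p = 0.22). Egr3 was separated in the lower direction, with 4.21 and 4.9 CPM against 24.3 and 36.6 CPM, and Nr4a1, often read as a sign of recent receptor signals, spread over 93.9 and 34.1 CPM on the MCD diet against 5.14 and 32.1 CPM on the control diet. The immediate early and AP-1 list had 18 of 25 members above 0 (42.5% of all genes), at a median of 0.58. Leaving out MCD replicate 4 turned this median to -0.61, whereas dropping MCD replicate 2 raised it to 1.19. Of the 25, 9 did not overlap in the higher direction (11.1% of all genes) and 4 in the lower (22.1%). Junb, an AP-1 subunit, was separated in the higher direction, with 40.3 and 44.1 CPM on the MCD diet against 14.9 and 1.79 CPM on the control diet. Gadd45a and Gadd45b, the members separated in the lower direction and stress-induced partners of MAP kinases, were at 0 to 0.537 CPM on the MCD diet and at 3.74 to 38.5 CPM on the control diet.

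Sterol synthesis genes were lower in 17 of 24 members (51.3% of all genes), with 8 separated in the lower direction (9.24% of all genes) against 0 in the higher (2.97%). The median was -1.70. It was -3.49 without MCD replicate 4, but weaker with any other γδ library left out, at -1.23 to -1.45. Dhcr7, the last step to cholesterol, read 0.248 and 0.47 CPM on the MCD diet against 56.6 and 9.37 CPM on the control diet (-6.16, SE 1.26, adjusted p = 0.0761). Sqle and Fdft1, which commit the pathway to sterols, read 3.14 and 3.9 CPM and 0.825 and 4.57 CPM on the MCD diet against 22.9 and 22.3 CPM and 24.98 and 24.2 CPM on the control diet. Ctsb, a gene on the other strand at 504 and 282 CPM on the MCD diet against 195 and 224 CPM on the control diet, shares 18.3% of the exon bases of Fdft1. The control libraries of Dhcr7, Sqle and Fdft1 all lay more than 2-fold above the MCD libraries, whereas Hmgcs1, an early enzyme of the pathway, read 18.8 and 22.6 CPM on the MCD diet against 15.9 and 13.0 CPM on the control diet. Of 32 genes of lipid uptake, storage and oxidation, 20 lay above 0 (42.5% of all genes), at a median of 0.69, but -0.30 without MCD replicate 2, and 1 was separated in the higher and 3 in the lower direction (2.97% and 9.24% of all genes). The fatty acid receptor gene Cd36, which macrophages and endothelium carry too, was separated in the higher direction, with 58.7 and 60.3 CPM on the MCD diet against 3.82 and 27.9 CPM on the control diet, and Acadm, which oxidises medium-chain fatty acids, in the lower, with 0.66 and 0.941 CPM against 5.14 and 4.06 CPM. Hadha, of long-chain oxidation, read 65.7 and 140.1 CPM on the MCD diet against 39.2 and 38.5 CPM on the control diet. Of 31 hypoxia and glycolysis genes, 20 lay above 0 (42.5% of all genes), and 1 was separated in the higher and 2 in the lower direction, against 2.97% and 9.24% of all genes. Pfkp, a phosphofructokinase, read 158 and 249.98 CPM on the MCD diet against 57.0 and 67.5 CPM on the control diet, and Pgk1, which makes ATP further down, 2.31 and 0.0672 CPM against 18.4 and 35.8 CPM. Pgk1 and Fth1 have near-identical copies elsewhere in the genome, so their counts are uncertain. Of 40 nuclear genes of oxidative phosphorylation, 24 lay below 0 (51.3% of all genes), at a median of -0.46 (-0.05 without control replicate 6), with 6 separated in the lower direction (9.24% of all genes) and 2 in the higher (2.97%). Ndufa1 and Sdhc, of complexes I and II, read 1.98 and 0 CPM and 4.87 and 10.01 CPM on the MCD diet against 30.8 and 18.5 CPM and 40.8 and 39.9 CPM on the control diet, while Cox7a2 of complex IV read 34.8 and 14.5 CPM against 1.53 and 1.46 CPM. In the lysosome, Npc1, which exports cholesterol, read 221 and 314 CPM on the MCD diet against 71.4 and 96.5 CPM on the control diet (1.67, SE 0.40, adjusted p = 0.0936), and Hexa, a lysosomal hexosaminidase, 27.8 and 39.1 CPM against 5.34 and 6.99 CPM. Lysosomal genes are abundant in macrophages, whose marker sum and divided members are given above, and the part of those cells was not tested.

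Proliferation genes were lower on the MCD diet in most members: 29 of 40 members lay below 0 (51.3% of all genes), with a median of -1.43 (-0.85 without control replicate 7), and 12 were separated in the lower direction (9.24% of all genes) against 0 in the higher (2.97%). The list summed to 370.5 and 527 CPM on the MCD diet against 555 and 695 CPM on the control diet. Kif11, the motor that separates spindle poles, read 0.0825 and 0 CPM on the MCD diet against 10.5 and 13.7 CPM on the control diet. Cenpf, a kinetochore protein gene, had no count in either MCD library and read 8.24 and 21.9 CPM on the control diet, at least 67.1-fold lower. Rrm1 and Rrm2, the subunits of ribonucleotide reductase, read 3.3 and 2.82 CPM and 0.248 and 0.269 CPM on the MCD diet against 44.3 and 17.2 CPM and 6.71 and 59.3 CPM on the control diet. Several members were scarce on both diets: Cdk1 had no count in the 4 libraries, and Aurkb read 0.0825 and 0 CPM against 2.34 and 3.09 CPM. Others varied between the MCD replicates, as Mcm3, at 13.4 and 92.1 CPM on the MCD diet against 20.8 and 23.9 CPM on the control diet. Cell cycle promoters are known to carry the element TTTGAA and the CCAAT box. In the 33 promoters of this list the first was present in 45.45% and the second in 78.79%, against 17.89% and 37.41% of all promoters, over 32 of 40 genes matched and both strands. The promoters of the 2 members with the widest gap are shown, with both motifs in capitals (RefSeq, GRCm38.p6, chr19:37376132-37376431 on the plus strand and chr1:189688037-189688336 on the minus strand).
Kif11: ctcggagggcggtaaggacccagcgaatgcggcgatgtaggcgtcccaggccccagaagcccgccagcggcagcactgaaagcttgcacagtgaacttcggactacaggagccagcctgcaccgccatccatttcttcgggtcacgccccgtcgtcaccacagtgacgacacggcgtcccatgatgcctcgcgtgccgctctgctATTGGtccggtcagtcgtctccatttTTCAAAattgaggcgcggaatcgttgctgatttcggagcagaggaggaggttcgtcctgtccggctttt
Cenpf: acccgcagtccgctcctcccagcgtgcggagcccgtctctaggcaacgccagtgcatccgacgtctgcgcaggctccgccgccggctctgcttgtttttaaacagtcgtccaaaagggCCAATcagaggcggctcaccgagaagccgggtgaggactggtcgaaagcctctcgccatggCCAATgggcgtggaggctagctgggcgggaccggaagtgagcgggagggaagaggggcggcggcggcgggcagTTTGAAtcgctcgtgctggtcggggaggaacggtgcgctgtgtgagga
These letters were not used to choose the list, and a match is no evidence of binding.

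**Figure D5:**
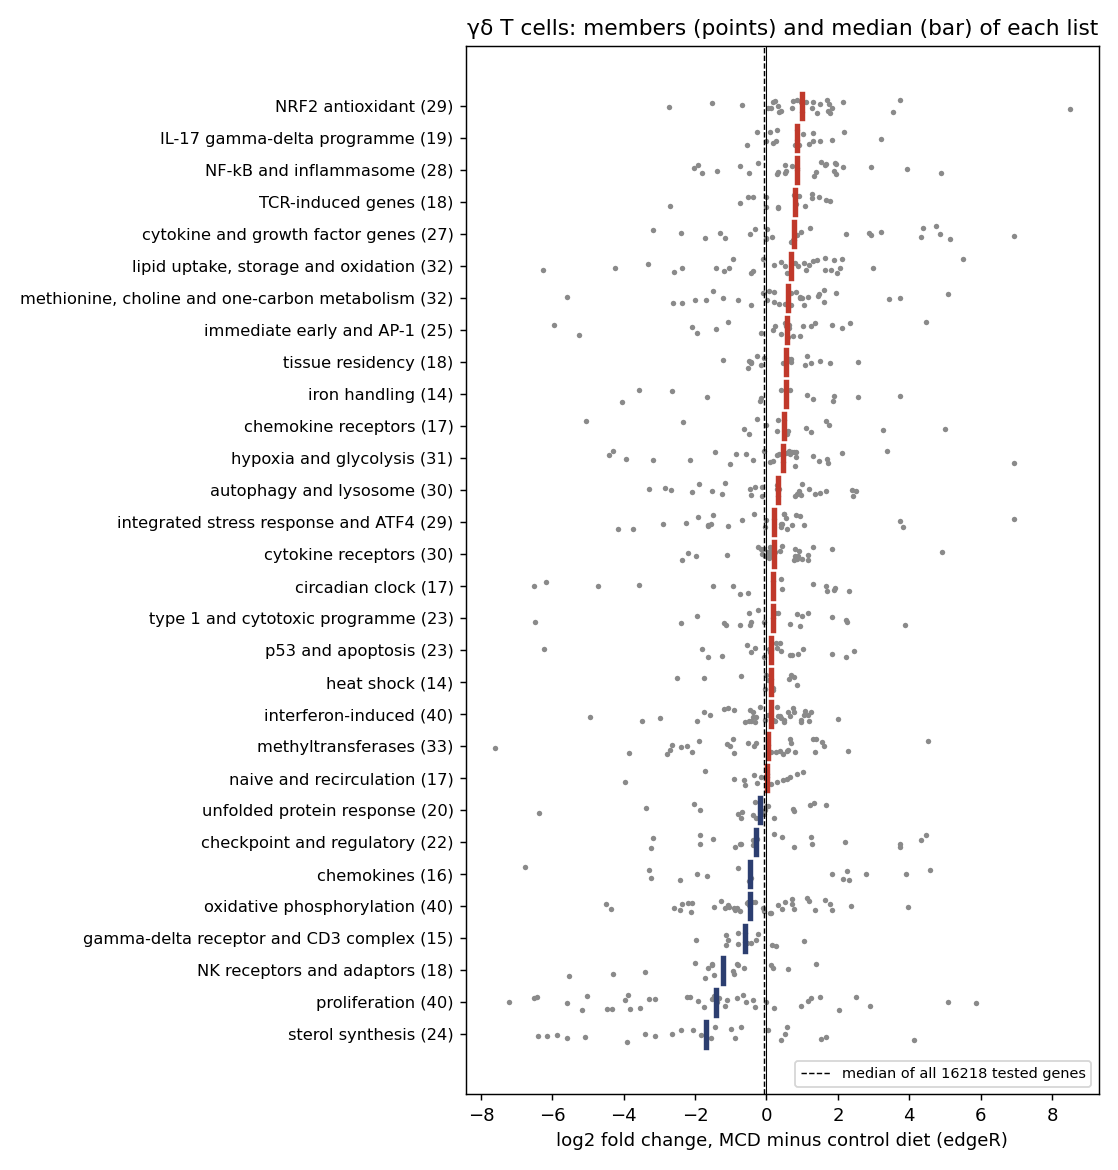
Log2 fold change (MCD minus control diet, edgeR) of the tested members (grey points) and the median (bar) of 30 gene lists in γδ T cells, with the number of tested members in brackets and the median of all 16218 tested genes as a dashed line. The NRF2 list has the highest of these medians, at 0.999, and the sterol synthesis list the lowest, at -1.70, and members of most lists lie on both sides of 0.

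The last comparison asked whether the diet difference of γδ T cells differed from that of wild-type CD4+ T cells, as the difference of the fold changes. The groups share no library. No gene passed at an adjusted p of 0.05 in edgeR (0.0% of 16218, lowest adjusted p 0.132), with 563 genes higher and 1151 lower at an unadjusted p under 0.05. DESeq2 called 635 genes and limma-voom 0. Counts with 1 library left out, given further below, take the spread of that group from the other groups. The median difference over all genes was -0.16. Among the genes with the smallest p, Cnot7, a deadenylase of the CCR4-NOT complex, read 196 and 53 CPM on the MCD diet against 13.0 and 16.7 CPM on the control diet in γδ cells, and in CD4+ cells 25.5 and 30.8 CPM on the MCD diet against 77.4 and 75.8 CPM on the control diet (difference of log2 fold changes 4.50, SE 0.85, adjusted p = 0.292). The diets thus lay in opposite order in the 2 cell types. Pmel, the melanosome protein gene, read 7.26 and 52.0 CPM on the MCD diet against 0 and 0 CPM on the control diet in γδ cells, and in CD4+ cells 6.98 and 5.73 CPM on the MCD diet against 14.9 and 7.8 CPM on the control diet. Fnip2 read 1.03 and 0 CPM on the MCD diet against 5.06 and 4.08 CPM on the control diet in CD4+ cells, also opposite to γδ cells (9.60, SE 1.90, adjusted p = 0.292). Kmt5a read 72.0 and 98.3 CPM on the MCD diet against 84.9 and 125 CPM on the control diet in CD4+ cells (2.58, SE 0.48, adjusted p = 0.292), and Cep97, a centriole protein gene, 123 and 142 CPM against 65.2 and 63.0 CPM, while in γδ cells Cep97 read 1.49 and 2.96 CPM against 29.0 and 70.7 CPM (-5.47, SE 0.82, adjusted p = 0.132). Apobec3, by contrast, was higher on the MCD diet in both cell types, with 320.1 and 256 CPM on the MCD diet against 123 and 157 CPM on the control diet in CD4+ cells. Chkb read 37.7 and 21.2 CPM on the MCD diet against 13.5 and 40.2 CPM on the control diet in CD4+ cells, and the diets overlapped there. Median differences between the cell types were 0.59 for the IL-17 list, 0.57 for the NRF2 list, -0.93 for NK receptors and -0.99 for proliferation genes.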

How the data were processed

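RNA of sorted T cells was measured by sequencing in 12 libraries, which the labels place in 6 groups of 2. Per the submitters' processing notes, bcl2fastq, STAR, featureCounts and DESeq2 were used on mm10 (GRCm38), with no versions given and strand setting not given in the sources used here. Without strand, reads of a gene and its antisense partner cannot be told apart, and such partners shared up to 19.1% of the exon bases of a named gene (Gadd45a). The authors deposited raw counts per gene (52459 genes), which were tested, and FPKM, used as an alternative. In every gene with enough counts to compare, these deposited FPKM are scaled by median-ratio size factors, so they are not scaled to library totals.

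The 12 libraries were fitted together in edgeR 4.0.16 under R 4.3.3 (filterByExpr, TMM scaling, quasi-likelihood test, 2-sided, prior count 2), with Benjamini-Hochberg adjustment over 16218 genes and a threshold of 0.05. SE was the size of the log2 fold change divided by the square root of F. CPM were scaled by TMM. The script was tested on simulated data. Alternatives used limma 3.58.1 and DESeq2 1.42.0. Genes named were the 10 of largest separation per direction (from 20 CPM and from 200 CPM), up to 4 of largest separation and further defining members per list, label and receptor genes, and the 5 smallest interaction p-values per direction. Members and lists were chosen with earlier results of these data known. A few genes this rule selects were left out of the text. Gene positions came from GENCODE vM21 and promoters from RefSeq.

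Total counts were 18466126 and 19498448 in γδ T cells on the MCD diet and 22930004 and 23203603 on the control diet. A floor of 3 counts was 0.202 to 0.248 CPM and 0.153 to 0.162 CPM, and covers counting error only. The folds given as "at least" leave out the larger spread between replicates, and are no lower bound for the cells.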

Additional observations from a re-analysis of the deposited data

How the results depend on the processing

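No paired analysis was possible because the γδ groups share no replicate number. The count of genes called between the diets, 0 in the reported fit, was also 0 with RLE scaling, from a mean of 50 counts, in only the groups compared and without mitochondrial genes. It was 3 with library-size scaling, 555 with no filter on low counts, 2070 in DESeq2, 63 in limma-voom, 3 with sample weights, 2 after thinning to equal totals, and 148 and 210 on log2 FPKM with pseudocounts of 1 and 0.1. With each γδ library left out it ranged from 0 to 1342. The interaction with CD4+ cells, also 0, came to 113 with no filter, 635 in DESeq2 and 3 on FPKM with a pseudocount of 0.1, was 0 in the other tools and scalings, and ranged from 0 to 455 with each library left out. The lone library of a diet is then assumed to vary like the other groups. Separated genes, 481 higher and 1499 lower, numbered 1008 to 2265 and 2747 to 3483 with a library left out, since 1 library then stands for a diet. On the deposited FPKM, an alternative chosen after seeing the data, 994 were lower and 465 higher. Library-size scaling moved the median fold change of all genes by -0.21 and limma-voom by -0.23, so directions of small differences are relative to that shift.

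Of the 157 gene results, 148 did not change sign in any alternative. Many of these genes were named for their gap between the diets in these same libraries, so a change of sign was unlikely in advance. Cdk1, with a fold change of 0, could not change sign. The count is therefore no support for the differences. The log2 fold changes of the other 9 changed sign in at least 1 alternative, and the cause was not tested. With library-size scaling they were -0.12 for Fcer1g, -0.14 for Maf, -0.20 for Mat2a and -0.10 for Tyrobp. Sample weights gave -0.0030 for Fcer1g and -0.18 for Tyrobp, limma-voom -0.0757 for Tyrobp, and both RLE scaling and DESeq2 0.0282 for Trgv2. With each γδ library left out they ran from -0.25 to 0.45 for Fcer1g, -0.0361 to 0.25 for Maf, -0.0593 to 0.14 for Mat2a, -0.73 to 2.06 for Mcm3, -0.62 to 1.99 for Sox13, -1.29 to 0.39 for Tbx21, -1.70 to 1.30 for Trdv4, -0.43 to 0.24 for Trgv2 and -0.74 to 0.74 for Tyrobp. The median of 15 of 40 lists kept its sign in all alternatives. The floor of 3 counts was highest in the γδ MCD libraries, at up to 0.248 CPM, and a gene under it cannot be told from one at 0. Zeros were not confined to such genes: 736 genes had at least 100 counts in one MCD library and 0 in the other.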

Other observations

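Genes of the unfolded protein response, which a cell raises when folding in the endoplasmic reticulum fails, lay below 0 in 13 of 20 members (51.3% of all genes), at a median of -0.18, against -0.06 over all genes. Of the 20, 3 were separated in the lower direction (9.24% of all genes) and 0 in the higher (2.97%). Of these 3, Sdf2l1, a chaperone cofactor, read 0.165 and 0.336 CPM on the MCD diet against 36.0 and 23.0 CPM on the control diet, Creld2 1.9 and 1.07 CPM against 20.9 and 11.6 CPM, and the disulfide isomerase gene Pdia4 20.9 and 38 CPM against 109 and 134 CPM (log2 fold change -2.04, SE 0.59, edgeR adjusted p = 0.142). Hsp90b1, an abundant member, read 436 and 550.4 CPM on the MCD diet against 856 and 751 CPM on the control diet. Plasma cells are rich in these genes, and the plasma cell markers Igkc and Jchain read 4.62 and 6.05 CPM and 0 and 0 CPM on the MCD diet against 139 and 66.8 CPM and 10.9 and 0.812 CPM on the control diet; the part of those cells was not tested.

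Clock genes stood on both sides. Per2 had no count in either MCD library and read 10.02 and 4.55 CPM on the control diet, and Nfil3, a repressor of the clock that also shapes innate lymphocytes, read 0 and 0.0672 CPM against 5.54 and 19.3 CPM. Tef, a clock output factor, read 36.2 and 26.9 CPM on the MCD diet against 10.7 and 5.85 CPM on the control diet, and Per1 20.7 and 49.2 CPM against 9.56 and 11.9 CPM. The labels give no time of collection. Of 40 interferon-induced genes, 0 were separated in the higher and 3 in the lower direction, below the 2.97% and 9.24% of all genes. Gbp3, a guanylate-binding protein, read 3.71 and 6.11 CPM on the MCD diet against 54.6 and 57.7 CPM on the control diet, Rsad2 0 and 0.806 CPM against 10.7 and 20.5 CPM, and Isg15 0.165 and 0.0672 CPM against 1.78 and 1.46 CPM. Abundant members of that list were closer, as Igtp, at 178 and 185 CPM on the MCD diet against 136 and 92.4 CPM on the control diet. The chemokine receptor gene Cxcr4 read 74.1 and 167 CPM on the MCD diet against 37.0 and 34.2 CPM on the control diet, and Tgfbr1, a receptor of transforming growth factor β, 211 and 238 CPM against 75.6 and 124 CPM. Ccl9 and Ccl6, chemokines of myeloid cells, read 97.7 and 106 CPM and 62.9 and 28.6 CPM on the MCD diet against 28.9 and 16.6 CPM and 1.37 and 11.6 CPM on the control diet.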
